A study of Homo sapiens with 10 samples.

Results

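Wide Rb domains were defined as stretches of chromatin that carried a single Rb peak of at least 2000 bp in both replicates of INX-315-treated cells. Both cell lines, OVCAR-3 and Kuramochi, come from human ovarian carcinoma of the high-grade serous type and are labelled WT for genotype. INX-315 is an inhibitor of the kinase CDK2. It was given at 300 nM for 2 days, and control cells received an equal volume of DMSO. Rb was mapped by CUT&RUN, in which an antibody brings micrococcal nuclease to its target on chromatin and the released DNA is sequenced. For every line there were 2 Rb libraries of each treatment and an IgG2a control library made after DMSO. The 4 Rb peak lists of a line were merged into regions wherever peaks shared at least 1 bp on chromosomes 1-22 and X. OVCAR-3 had 310 such domains among 18547 merged regions and Kuramochi had 165 among 17654. The lines shared 97 of them, which was 31.3% of the OVCAR-3 set and 58.8% of the Kuramochi set, so that 378 distinct loci were described. Because the INX-315 peak widths themselves chose the members, their widths in the line that chose them are given as a description without a test.

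Rb, the retinoblastoma protein, is held on chromatin mainly through E2F transcription factors and restrains genes needed for entry into S phase. Cyclin-dependent kinases, among them CDK2 with cyclin E, phosphorylate Rb and weaken its hold on E2F. Promoters of many widely expressed genes lie in CpG islands, which are stretches rich in G, C and the CpG dinucleotide. A peak in these lists is a run of bases over which the fragment coverage stood above the local background, so its width depends on how far the signal spreads, on how high it rises and on sequencing depth. Mean coverage was 0.306 and 0.421 fragments per base in the OVCAR-3 INX-315 libraries against 0.495 and 0.501 after DMSO, and 0.405 and 0.216 against 0.445 and 0.380 in Kuramochi. The INX-315 lists of each line were nevertheless the longer ones, with 13010 and 17203 peaks against 6129 and 7928 in OVCAR-3 and 15179 and 13363 against 5196 and 8756 in Kuramochi. Peaks of at least 2000 bp made up 1.6% to 4.03% of the INX-315 lists and 0.327% to 1.04% of the DMSO lists. The IgG2a libraries had 25 and 12 peaks on these chromosomes, and 0 domains overlapped any of them. Only 5 of the 18547 merged OVCAR-3 regions and 3 of the 17654 merged Kuramochi regions did, so nothing is read from the count of domains.

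The sequences of 3 of the widest shared domains are shown as examples. For each, the core is a window of 200 bases from the longest stretch under peaks of both OVCAR-3 DMSO libraries, and the added window comes from the longest stretch that lay under both INX-315 peaks and under neither DMSO library. Windows were placed outside annotated exons, as near to the middle of the stretch as possible. They are printed 5′ to 3′ on the plus strand of hg38 with each CpG in capitals.
NEMP1 core, chr12:57088064-57088263: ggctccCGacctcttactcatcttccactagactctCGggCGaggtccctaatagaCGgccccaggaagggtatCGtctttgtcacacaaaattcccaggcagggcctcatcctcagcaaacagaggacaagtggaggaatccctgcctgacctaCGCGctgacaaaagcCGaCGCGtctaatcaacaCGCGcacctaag
NEMP1 added, chr12:57090001-57090200: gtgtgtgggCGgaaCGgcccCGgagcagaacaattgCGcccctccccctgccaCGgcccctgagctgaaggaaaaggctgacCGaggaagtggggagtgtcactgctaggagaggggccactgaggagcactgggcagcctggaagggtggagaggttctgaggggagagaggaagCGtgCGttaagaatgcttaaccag
UBTF core, chr17:44218765-44218964: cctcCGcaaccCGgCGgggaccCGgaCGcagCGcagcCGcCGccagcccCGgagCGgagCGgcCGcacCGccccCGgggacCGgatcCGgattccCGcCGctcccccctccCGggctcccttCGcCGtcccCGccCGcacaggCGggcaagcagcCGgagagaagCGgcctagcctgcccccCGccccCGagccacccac
UBTF added, chr17:44220964-44221163: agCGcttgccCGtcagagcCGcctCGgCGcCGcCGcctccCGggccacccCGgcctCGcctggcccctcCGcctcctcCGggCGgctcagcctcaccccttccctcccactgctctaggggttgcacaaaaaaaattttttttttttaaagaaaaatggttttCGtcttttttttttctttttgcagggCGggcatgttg
NR3C1 core, chr5:143404130-143404329: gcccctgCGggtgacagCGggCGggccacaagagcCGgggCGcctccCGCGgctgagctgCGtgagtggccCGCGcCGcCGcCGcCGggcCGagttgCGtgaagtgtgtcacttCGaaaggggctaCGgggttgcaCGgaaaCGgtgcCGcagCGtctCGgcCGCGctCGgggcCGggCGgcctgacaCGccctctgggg
NR3C1 added, chr5:143402738-143402937: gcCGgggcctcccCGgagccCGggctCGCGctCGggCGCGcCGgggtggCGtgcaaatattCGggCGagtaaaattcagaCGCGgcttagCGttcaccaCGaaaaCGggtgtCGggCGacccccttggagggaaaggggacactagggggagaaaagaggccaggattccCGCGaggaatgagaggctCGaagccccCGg
The NEMP1 core window lay 101 bp upstream of the start site and held 12 CpGs, and its added window lay 2038 bp upstream, inside the divergent neighbour gene NAB2, and held 8. The UBTF windows held 28 and 15 CpGs and were centred 885 bp downstream and 1314 bp upstream of the start site. The NR3C1 windows held 29 and 23 CpGs and were centred 348 bp upstream and 1044 bp downstream. In each of these 3 pairs the core was therefore the denser in CpG, while the added window was still CpG-bearing. GC content ranged from 56.0% in the NEMP1 core window to 81.0% in the UBTF core window. The median over OVCAR-3 domains was 66.8%, so these windows do not stand for a typical domain.

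The consensus for E2F binding was searched as TTTCCCGC, TTTGGCGC, TTTCGCGC and TTTGCCGC on both strands. Among the 12 widest shared domains only NEMP1, PTMA and H2BC17 held a match within the overlap of the OVCAR-3 INX-315 peaks, with 1, 3 and 2 matches, and all of these lay under both OVCAR-3 DMSO libraries. The first match of each that lay outside an exon is shown in capitals within 80 bases.
NEMP1, chr12:57087546-57087625: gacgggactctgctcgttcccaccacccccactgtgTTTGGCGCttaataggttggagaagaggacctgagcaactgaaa
PTMA, chr2:231708167-231708246: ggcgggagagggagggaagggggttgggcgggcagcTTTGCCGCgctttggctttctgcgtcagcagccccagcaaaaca
H2BC17, chr6:27893192-27893271: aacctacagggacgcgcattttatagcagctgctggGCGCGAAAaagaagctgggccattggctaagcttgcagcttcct
The NEMP1 match was intronic, 477 bp downstream of the start site. The PTMA match lay 329 bp upstream of the start site used, within an annotated gene body, and the H2BC17 match lay 193 bp upstream.

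In the domains of OVCAR-3, the longest single peak had a median of 967 bp and 1238 bp in the DMSO libraries and of 2283 bp and 2447 bp in the INX-315 libraries. In Kuramochi the medians were 1039 bp and 1776 bp after DMSO and 2391 bp and 2305 bp after INX-315. Kuramochi DMSO replicate 2 was thus closer to the INX-315 libraries than any other DMSO library was. The INX-315 peaks covered 90.8% and 97.0% of the domain length in OVCAR-3, and the DMSO peaks covered 42.4% and 53.1%. The corresponding values in Kuramochi were 95.5% and 92.1% against 46.7% and 71.3%. Summit height, as a multiple of the genome-wide mean coverage of the library, had medians of 108 and 151 against 30.3 and 35.9 in OVCAR-3 and of 124 and 139 against 42.7 and 60.6 in Kuramochi, so the domains were both taller and wider in the INX-315 libraries.

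**Figure D1:**
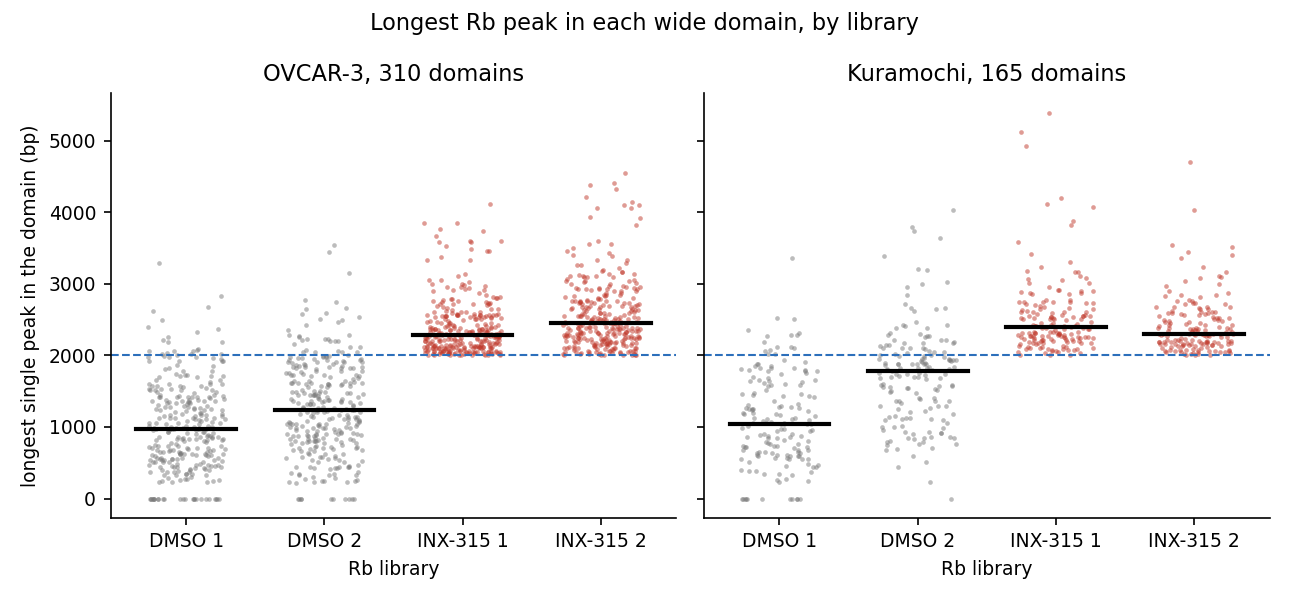
Longest single Rb peak (bp, vertical axis) in each wide domain in the 4 Rb libraries of its own line (horizontal axis), where points are domains, black bars are medians, a value of 0 is a domain without a peak and the dashed line is the 2000 bp threshold. INX-315 points lie above the line by construction, whereas 22 and 36 of 310 OVCAR-3 points and 16 and 50 of 165 Kuramochi points reach it in the DMSO libraries.

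Most domains also carried Rb peaks in the DMSO libraries. A DMSO peak was present in both DMSO libraries at 281 of 310 OVCAR-3 domains and 154 of 165 Kuramochi domains, in 1 DMSO library at 23 and 10, and in neither at 6 and 1. Of the other regions with a peak in both INX-315 libraries, 39.99% in OVCAR-3 and 39.81% in Kuramochi had a peak in both DMSO libraries, and 36.3% and 32.1% had one in neither. The share with a peak in both DMSO libraries rose with INX-315 width, from 6.74% and 7.89% of regions below 500 bp. It was 83.2% and 86.5% at 1500 bp to 2000 bp, where 4.35% and 0.996% had a peak in neither. Control peaks were thus not particular to the domains. The mean DMSO length under peaks was, at the median domain, 52.8% of the INX-315 length in OVCAR-3 (interquartile range 36.7% to 64.9%) and 66.8% in Kuramochi (50.7% to 77.0%). Without Kuramochi DMSO replicate 1 the latter became 80.8%, and without replicate 2 it was 49.4%. Several DMSO peaks were held by 85 and 96 OVCAR-3 domains and by 55 and 50 Kuramochi domains. In the INX-315 libraries the counts were 13 and 11, and 6 and 14. The rule asked for a wide single INX-315 peak, which favours low counts there, so nothing is read from this contrast. In the Kuramochi libraries, several peaks lay at 63 and 82 OVCAR-3 domains after DMSO and at 70 and 93 after INX-315. In the OVCAR-3 libraries they lay at 45 and 44 Kuramochi domains against 27 and 18.

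The length under peaks was greater in both INX-315 libraries than in both DMSO libraries at 303 of the 310 OVCAR-3 domains, and 58.8% of all merged OVCAR-3 regions met the same criterion. It was so at 148 of the 165 Kuramochi domains, against 51.5% of all Kuramochi regions. As INX-315 widths chose the members, nothing is read from these counts. The mirrored criterion, a peak of at least 2000 bp in both DMSO libraries, was met by 14 regions in OVCAR-3, of which 13 were domains, and by 15 in Kuramochi, of which 14 were domains.

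The domains were also strong in the DMSO libraries. Ranked by fold enrichment among all regions with a peak in the library, the median domain stood at the 71.8th and 75.6th percentile of the OVCAR-3 DMSO libraries and at the 79.1st and 86.4th percentile of the Kuramochi DMSO libraries. Ranked by width, the median domain stood at the 89.0th and 93.0th percentile in OVCAR-3 and at the 92.3rd and 97.9th in Kuramochi. Most of the domains that INX-315 chose were thus among the wider regions of the control cells too.

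Domain length was spread narrowly above the threshold. The merged regions spanned 2034 bp to 4552 bp (median 2514 bp) in OVCAR-3 and 2069 bp to 5389 bp (median 2545 bp) in Kuramochi. The narrower INX-315 peak was below 2200 bp at 137 and 65 domains, at least 2500 bp at 80 and 44, and at least 3000 bp at 19 and 9. Just inside the threshold, RASA2, PPAT and QSER1 in OVCAR-3 had 2000 bp, 2001 bp and 2002 bp in the narrower INX-315 library. Just outside it, ZNF668 and a region of chromosome 2 without a promoter had 1999 bp and THRB had 1998 bp. In Kuramochi TDRD3 and MAP3K6 stood inside with 2000 bp and 2002 bp, and CTCF, TSC22D2 and FBXO5 stood outside with 1998 bp, 1997 bp and 1988 bp. In addition 455 OVCAR-3 and 216 Kuramochi regions reached 2000 bp in only 1 of the INX-315 libraries. The count of domains accordingly rose to 693 in OVCAR-3 when INX-315 replicate 1 was left out and to 332 in Kuramochi without INX-315 replicate 2, the shallower INX-315 library of each line. A wide peak was then asked of only 1 INX-315 library, so the count could not fall.

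Among the widest domains shared by the lines was that of NEMP1, which encodes an inner nuclear membrane protein, and of its divergent neighbour NAB2, a co-repressor of EGR transcription factors. This region (chr12:57086418-57090563 in OVCAR-3) had longest peaks of 2832 bp and 3440 bp in the OVCAR-3 DMSO libraries and of 3846 bp and 4061 bp in the INX-315 libraries. In Kuramochi they were 1276 bp and 2425 bp against 3877 bp and 3521 bp. DMSO and INX-315 libraries did not overlap in either line.

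The domain of PTMA, which encodes the nuclear protein prothymosin alpha, lay at chr2:231706508-231711059 in OVCAR-3. Its longest peak went from 1522 bp and 1976 bp after DMSO to 3453 bp and 3399 bp after INX-315 in OVCAR-3, and from 863 bp and 3791 bp to 4932 bp and 4695 bp in Kuramochi. At UBTF (chr17:44218323-44222867), which encodes a transcription factor of RNA polymerase I, the values were 1329 bp and 1613 bp against 3482 bp and 4545 bp in OVCAR-3. In Kuramochi they were 1039 bp and 1175 bp against 3235 bp and 3168 bp. All of these INX-315 values exceeded the DMSO values of the same line.

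SIX5, a homeodomain transcription factor gene next to DMPK (chr19:45767520-45770912), was wide in all INX-315 libraries but overlapped between treatments in Kuramochi. Its longest peak was 805 bp and 1818 bp against 2920 bp and 3393 bp in OVCAR-3, and 1633 bp and 3742 bp against 4111 bp and 2849 bp in Kuramochi. NR3C1 (chr5:143402530-143405621), the gene of the glucocorticoid receptor, had 1716 bp and 2115 bp against 2817 bp and 3092 bp in OVCAR-3. In Kuramochi it had 1252 bp and 2994 bp against 3015 bp and 3103 bp, so that DMSO replicate 2 came close to the INX-315 libraries. At SIX5 that library exceeded one of them.

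The domain at chr6:27892579-27895667 held the starts of 3 replication-dependent histone genes, H2BC17, H2AC17 and H3C12, which are transcribed in S phase. It had 1927 bp and 2278 bp after DMSO and 3003 bp and 3089 bp after INX-315 in OVCAR-3, and 2359 bp and 2622 bp against 2861 bp and 2671 bp in Kuramochi. The mean DMSO length under peaks was 69.0% and 90.0% of the INX-315 length in these lines, so the domain was broad in both treatments.

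**Figure D2:**
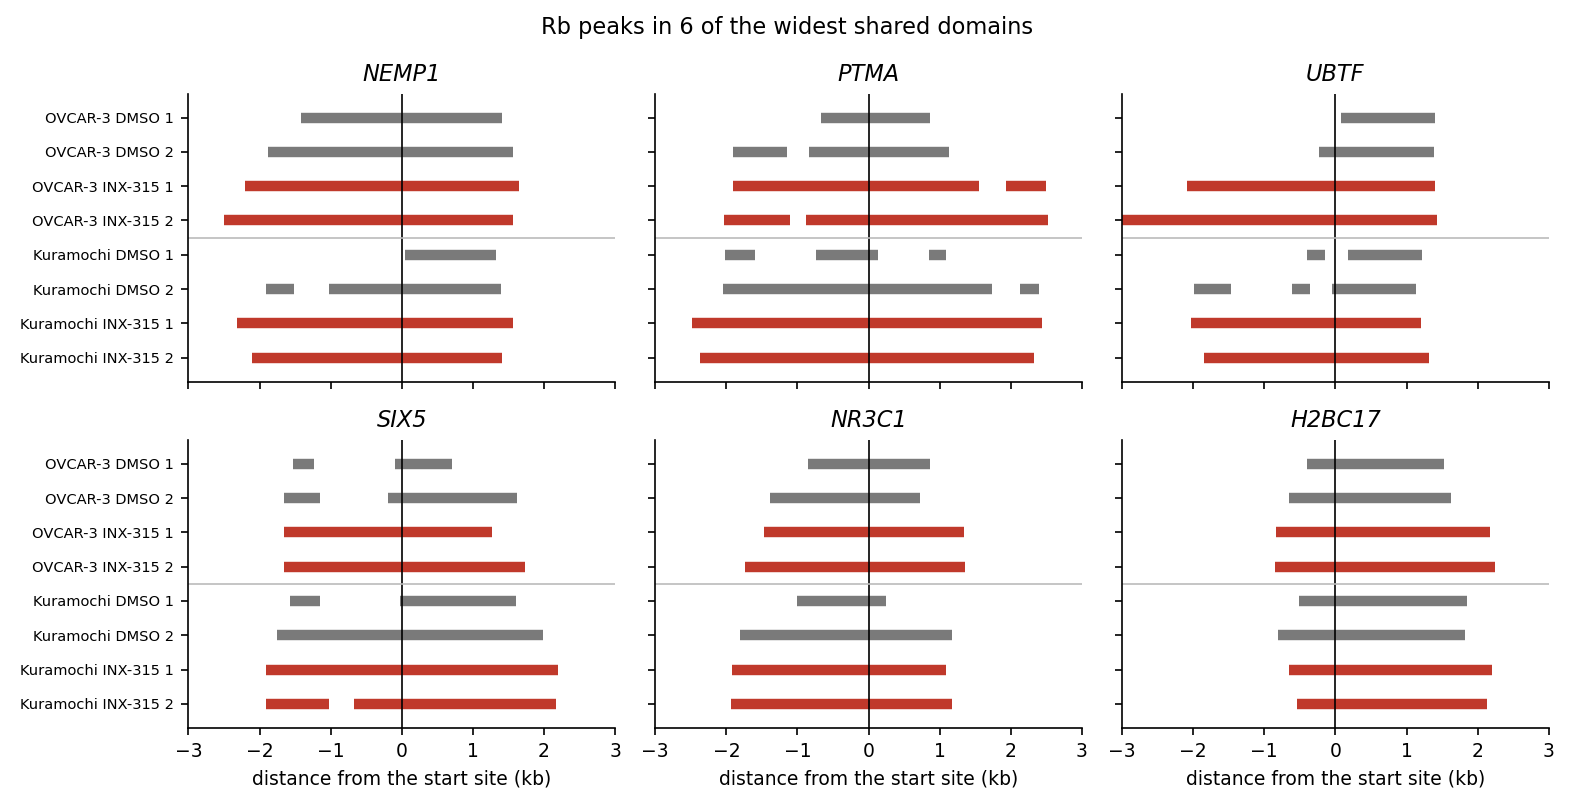
Rb peaks (bars) of the 8 Rb libraries (rows, grey DMSO and red INX-315) at 6 of the widest shared domains, drawn to scale against the distance from the start site of the named gene (kb, in the direction of transcription) and clipped at 3 kb. The OVCAR-3 INX-315 bars of UBTF extend upstream of DMSO bars that end near the start site. Both Kuramochi DMSO libraries also have separate upstream signal at UBTF. The 3 DMSO peaks of PTMA in Kuramochi replicate 1 lie within a single INX-315 peak of 4932 bp.

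The remaining shared domains of the widest 12 were those of CDK13, TSEN34, TP53I13, MECOM, RUSC1 and FOXO3. CDK13, a kinase of the RNA polymerase II machinery, was narrow in the control cells, with 611 bp and 660 bp against 2769 bp and 2867 bp in OVCAR-3 and 650 bp and 1393 bp against 2875 bp and 2643 bp in Kuramochi. RUSC1 was broad in both treatments, with 2399 bp and 2464 bp against 2561 bp and 2932 bp in OVCAR-3 and 2507 bp and 2722 bp against 2876 bp and 2839 bp in Kuramochi. TSEN34, a subunit of the tRNA splicing endonuclease, differed between the lines in its control state. Its longest DMSO peaks were 2679 bp and 2780 bp in OVCAR-3 but 260 bp and 1104 bp in Kuramochi, while the INX-315 peaks were 2763 bp and 3042 bp, and 3049 bp and 2641 bp. TP53I13, a gene named for its induction by p53, had 1426 bp and 2420 bp against 2951 bp and 3046 bp in OVCAR-3, and no peak and 952 bp against 2592 bp and 2965 bp in Kuramochi. MECOM, a zinc finger transcription factor gene, had 1782 bp and 2267 bp against 2738 bp and 2683 bp in OVCAR-3, whereas in Kuramochi DMSO replicate 2 reached 3188 bp and the INX-315 libraries 3183 bp and 2574 bp. FOXO3, a forkhead transcription factor gene, had 1599 bp and 1478 bp against 2550 bp and 2876 bp in OVCAR-3, and in Kuramochi DMSO replicate 2 (3384 bp) exceeded both INX-315 libraries (2911 bp and 3360 bp).

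Few domains lacked control peaks. In OVCAR-3 the promoters of SLITRK5 and PLXDC2, which encode membrane proteins, had no peak in either DMSO library and 2532 bp and 2798 bp, and 2327 bp and 2284 bp, after INX-315. PLXDC2 had no peak in any Kuramochi library. SLITRK5 had no peak and 632 bp after DMSO and 1218 bp and no peak after INX-315 in Kuramochi, so its treatments overlapped there. In Kuramochi the promoter of FBN2, the gene of the matrix protein fibrillin 2, had no DMSO peak and 2251 bp and 2014 bp after INX-315, although OVCAR-3 had 1594 bp and 545 bp there in the DMSO libraries. CNOT6L, which encodes a deadenylase subunit, had no peak and 231 bp against 2298 bp and 2155 bp in Kuramochi, and no peak and 514 bp against 2277 bp and 2669 bp in OVCAR-3. At the other end of the range, RALY in OVCAR-3 had 2063 bp and 2235 bp against 2051 bp and 2270 bp. LMNB1, the gene of lamin B1, had 2284 bp and 2464 bp against 2405 bp and 2268 bp in Kuramochi, so that its treatments overlapped.

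The widest OVCAR-3 domains that were not domains in Kuramochi were those of GNAS, ICAM5, FOSL2, HIVEP2 and the imprinted pair SGCE and PEG10. GNAS, which encodes the alpha subunit of a stimulatory G protein, had 1077 bp and 885 bp against 4121 bp and 4105 bp in OVCAR-3 and 673 bp and 747 bp against 1766 bp and 1555 bp in Kuramochi. HIVEP2, a zinc finger gene, had 652 bp and 724 bp against 3527 bp and 3561 bp in OVCAR-3, and no peak and 605 bp against 1729 bp and 1065 bp in Kuramochi. Both were therefore wider after INX-315 in both lines and missed the threshold in Kuramochi. FOSL2, which encodes a subunit of the transcription factor AP-1, had 848 bp and 2743 bp against 3587 bp and 3555 bp in OVCAR-3 and 378 bp and 711 bp against 1454 bp and 1060 bp in Kuramochi. ICAM5 had 973 bp and 1214 bp against 3743 bp and 4410 bp in OVCAR-3, and 304 bp and 2217 bp against 2785 bp and 1916 bp in Kuramochi. SGCE had 1161 bp and 1516 bp against 3375 bp and 3601 bp in OVCAR-3, and 1338 bp and 1864 bp against 1881 bp and 1798 bp in Kuramochi. At ICAM5 and SGCE the treatments thus overlapped in Kuramochi.

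Of the Kuramochi domains outside the OVCAR-3 set, that of MAZ, a zinc finger transcription factor gene, had 3359 bp and 2841 bp against 3827 bp and 3446 bp in Kuramochi, and 1646 bp and 880 bp against 673 bp and 2436 bp in OVCAR-3. E2F3, which encodes an E2F family activator, had 1035 bp and 2952 bp against 3580 bp and 3407 bp in Kuramochi, and 751 bp and 2615 bp against 1637 bp and 3474 bp in OVCAR-3. KMT2A, a histone H3 lysine 4 methyltransferase gene, had 1260 bp and 1886 bp against 4070 bp and 3238 bp in Kuramochi, and 831 bp and 442 bp against 2486 bp and 1678 bp in OVCAR-3. XPO1, the nuclear export receptor gene, had 1190 bp and 1564 bp against 3161 bp and 3081 bp in Kuramochi. In OVCAR-3 the treatments thus overlapped at MAZ and E2F3 and did not overlap at KMT2A.

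Domains that were not shared were seldom absent from the other line. Of the 213 OVCAR-3 domains that were not Kuramochi domains, 204 had a peak in both Kuramochi INX-315 libraries, 71 reached 2000 bp in 1 of them, and 4 had no peak in either. All 68 Kuramochi domains that were not OVCAR-3 domains had a peak in both OVCAR-3 INX-315 libraries, and 44 reached 2000 bp in 1 of them. The narrower of the other line's INX-315 peaks had a median of 1250 bp and 1708 bp in these sets. A domain confined to 1 line by the threshold was thus mostly a narrower region of the other line.

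To ask whether the difference between treatments held in libraries that had no part in choosing the members, the domains of each line were measured in the libraries of the other. Over the 165 Kuramochi domains, the OVCAR-3 peaks covered 202 kb and 245 kb after DMSO and 358 kb and 395 kb after INX-315. Over the 310 OVCAR-3 domains, the Kuramochi peaks covered 245 kb and 419 kb after DMSO and 622 kb and 561 kb after INX-315. The treatments did not overlap in either line, with a ratio of 1.69-fold in the OVCAR-3 libraries and 1.84-fold in the Kuramochi libraries. The mean difference on the log2 scale was 0.82, and the SD between replicates was 0.30 (exact two-sided permutation of treatment within lines, n = 4 libraries per treatment, p = 0.0556, adjusted p over 3 tests = 0.0556). That is the smallest p the 36 arrangements allow, so the design could not pass 0.05.

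The mean longest peak over the other line's domains behaved likewise. It was 1094 bp and 1348 bp against 2123 bp and 2441 bp in the OVCAR-3 libraries, and 708 bp and 1248 bp against 1934 bp and 1666 bp in the Kuramochi libraries. The mean log2 difference was 0.92 with a replicate SD of 0.33 (exact two-sided permutation, n = 4 libraries per treatment, p = 0.0556, again the smallest possible, adjusted p = 0.0556). Leaving out Kuramochi DMSO replicate 1 lowered the log2 differences of covered length and of longest peak to 0.63 and 0.72.

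This widening has to be read against the rest of the peak lists, which grew too. Relative to the length under peaks in all other regions, the domains took a smaller share after INX-315, at 4.32% and 3.89% against 6.46% and 5.73% in the OVCAR-3 libraries and at 6.72% and 7.1% against 9.46% and 8.77% in the Kuramochi libraries. The mean log2 difference was −0.48 with a replicate SD of 0.094 (exact two-sided permutation, n = 4 libraries per treatment, p = 0.0556, the smallest possible, adjusted p = 0.0556). Other regions include many that had no peak after DMSO. Over regions with a peak in all 4 libraries of the line measured, a comparison chosen after the data were seen, the ratio was 7.0% and 7.07% against 7.09% and 7.16% in the OVCAR-3 libraries and 9.85% and 11.1% against 11.2% and 11.1% in the Kuramochi libraries. The log2 difference then changed sign to 0.054 (exact permutation over the same 8 libraries, p = 0.111). With the same number of top peaks taken from each library of a line it was −0.071 (exact permutation, n = 4 per treatment, p = 0.111).

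Counted domain by domain, the covered length was greater in both INX-315 libraries of the other line than in both of its DMSO libraries at 241 of 310 OVCAR-3 domains and at 149 of 165 Kuramochi domains. The same held for 46.6% of all OVCAR-3 regions measured in Kuramochi and for 55.8% of all Kuramochi regions measured in OVCAR-3. Among regions with a peak in all 4 libraries of the other line, it held at 183 of 237 OVCAR-3 domains (77.2%) against 72.3% of such regions, and at 138 of 154 Kuramochi domains (89.6%) against 84.2%. With presence in all libraries required, the domains were therefore near the background. The opposite order was seen at 0 domains. It was also rare over all regions, at 19 of 18547 OVCAR-3 regions and 8 of 17654 Kuramochi regions, so nothing is read from that count.

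**Figure D3:**
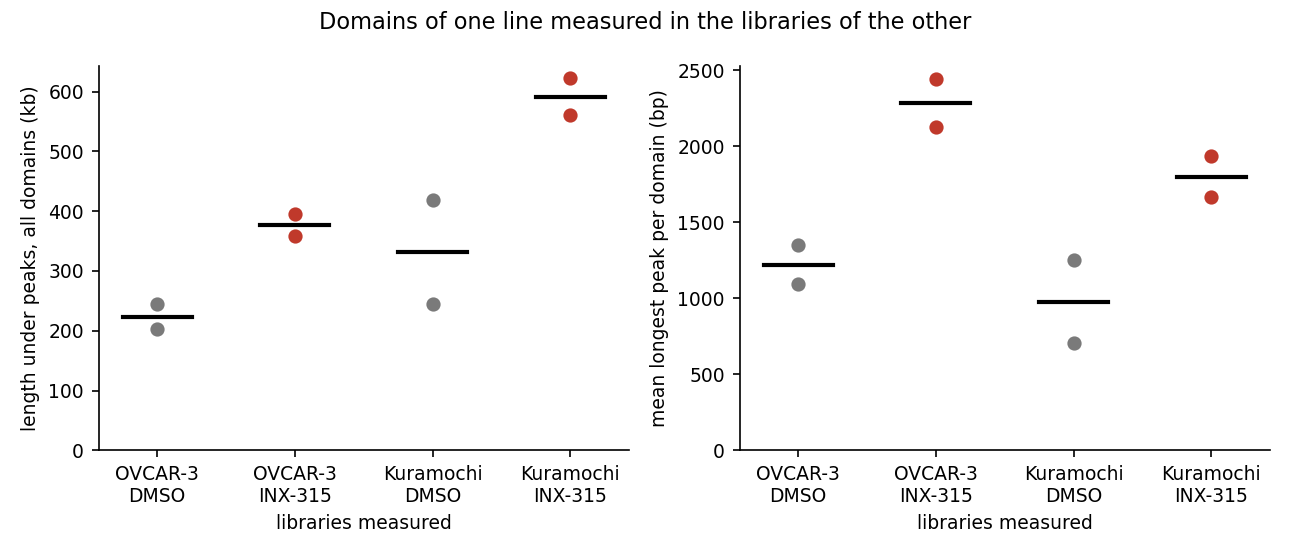
Length under Rb peaks summed over all domains of the other line (left, kb) and mean longest peak per domain (right, bp) in each Rb library, where points are libraries, grey is DMSO, red is INX-315 and black bars are means of 2 libraries. In both lines the INX-315 points lie above the DMSO points, for example at 358 kb and 395 kb against 202 kb and 245 kb in OVCAR-3. The sums of the 2 lines run over different numbers of domains, 165 in the OVCAR-3 libraries and 310 in the Kuramochi libraries.

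Almost all domains overlapped promoters. A promoter, taken as 2000 bp upstream to 500 bp downstream of a GENCODE start site, was touched by 309 of 310 OVCAR-3 domains and by 165 of 165 Kuramochi domains. The shares were 91.5% and 92.4% among the 11514 and 10959 other regions with a peak in both INX-315 libraries. The exception was a region at chr5:155727774-155730150 with 911 bp and 1316 bp after DMSO and 2272 bp and 2314 bp after INX-315. The domains held a median of 5 and 6 annotated start sites, against 4 in the other regions of either line. Protein-coding genes started on both strands in 65 OVCAR-3 domains (21.0%) and 47 Kuramochi domains (28.5%), against 9.93% and 10.2% of other regions. A longer region has more room for start sites, and the shares were not corrected for length. Regions of 1500 bp to 2000 bp in the narrower INX-315 library were close to the domains in these traits. Of them, 98.5% in OVCAR-3 and 99.8% in Kuramochi touched a promoter, with a median of 5 and 6 start sites. Protein-coding genes started on both strands in 17.0% and 20.3% of them.

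Around the start site, the added length lay on both sides. This was measured in the 234 OVCAR-3 and 111 Kuramochi domains with protein-coding starts on a single strand, relative to the start nearest to the middle of the INX-315 peaks, a choice that itself places the INX-315 signal about evenly. Because the INX-315 peaks chose both the domains and the start site, their presence over nearly every start site is fixed by the rule, and nothing is read from it. A DMSO peak lay over the start site in 58.1% and 70.1% of OVCAR-3 domains and in 62.2% and 81.1% of Kuramochi domains. The median gain in covered length was 428 bp upstream and 687 bp downstream in OVCAR-3, and 304 bp and 509 bp in Kuramochi. The gain was larger downstream at 145 of 234 and 80 of 111 domains, or 62.0% and 72.1%. The INX-315 peaks chose the domains and the start sites, and no share over other regions stands beside these counts. Nothing is therefore read from them. DMSO coverage was somewhat longer upstream, with medians of 525 bp and 698 bp against 457 bp and 692 bp downstream in OVCAR-3 and of 701 bp and 928 bp against 507 bp and 852 bp in Kuramochi. With the INX-315 signal placed about evenly, the side of the gain in part restates this order and is not a separate result.

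**Figure D4:**
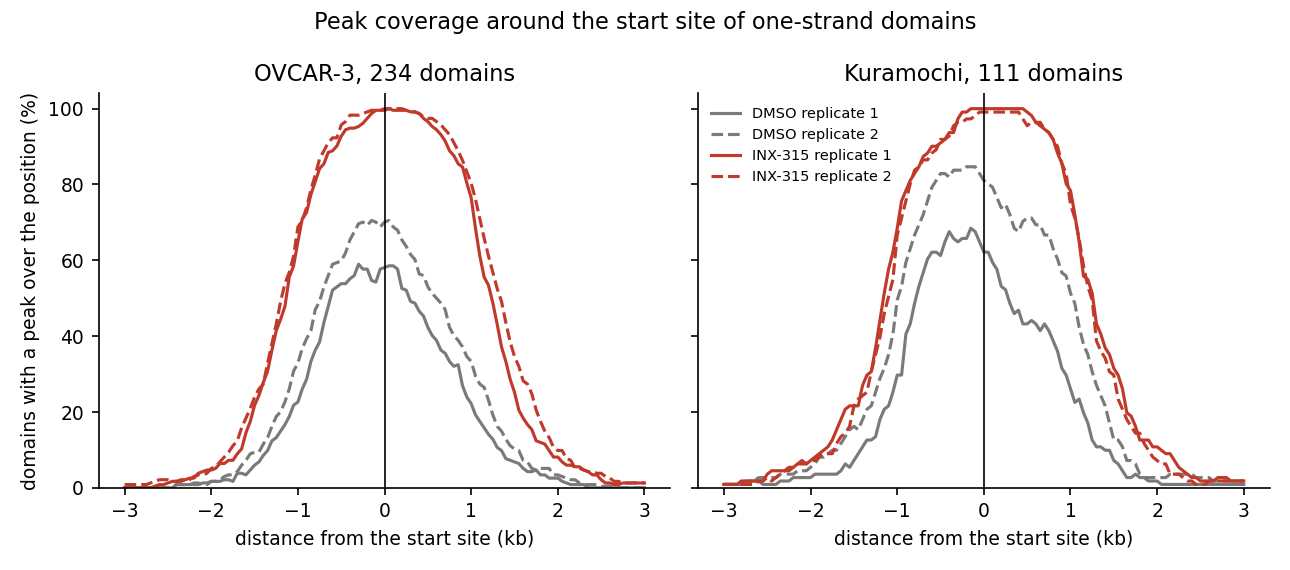
Share of one-strand domains with a peak over each position (%, vertical axis) against the distance from the start site (kb, horizontal axis, in the direction of transcription) in the 4 Rb libraries of OVCAR-3 (234 domains) and Kuramochi (111 domains). The grey DMSO curves reach 58.1% to 81.1% at the start site, and the height of the red INX-315 curves there is fixed by how domains and start sites were chosen. The gap between the colours is wider downstream than upstream of the start site, but it depends on the same choice, so nothing is read from it.

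At the median domain with a peak in both libraries compared, the summit stayed close to its place. Between treatments, summits lay within 200 bp of each other in 56.7% to 63.2% of such domains in OVCAR-3 and 61.0% to 63.6% in Kuramochi. Between INX-315 replicates the shares were 68.7% and 69.1%, and between DMSO replicates 56.6% and 59.7%. Between a DMSO and an INX-315 library the tallest summits of a domain were a median of 128 bp to 147 bp apart in OVCAR-3 and 85.5 bp to 144 bp apart in Kuramochi. Between the DMSO replicates the distance was 162 bp and 120 bp, and between the INX-315 replicates 92.0 bp and 68.0 bp. The distance between treatments was thus no greater than that between DMSO replicates in OVCAR-3, and it spanned the DMSO value in Kuramochi.

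The domains lay in long CpG-rich stretches. Windows of 200 bp with at least 50% GC and a ratio of observed to expected CpG of at least 0.6 were counted as CpG-rich. Within 3000 bp on either side of the middle, their union had a median of 2700 bp (interquartile range 2250 bp to 3350 bp) in OVCAR-3 domains and 2800 bp (2350 bp to 3400 bp) in Kuramochi domains, against 1600 bp and 1650 bp in other regions. It was at least 2000 bp in 87.7% and 92.1% of domains and in 30.4% and 32.2% of other regions. The CpG-rich length rose from bin to bin of peak width below the threshold as well, with medians of 1350 bp, 1500 bp, 1750 bp and 2150 bp in OVCAR-3 and 1450 bp, 1600 bp, 1850 bp and 2250 bp in Kuramochi. The median GC content was 66.8% and 67.5% in domains and 58.6% and 59.0% in other regions, and CpG density was 8.83 and 9.20 against 5.80 and 5.95 per 100 bp. Regions of 1500 bp to 2000 bp in the narrower INX-315 library were close to the domains, with 64.85% and 65.78% GC and 8.25 and 8.55 CpGs per 100 bp. These are descriptions across regions of the same libraries, and the part of sequence composition in fragment recovery was not tested.

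**Figure D5:**
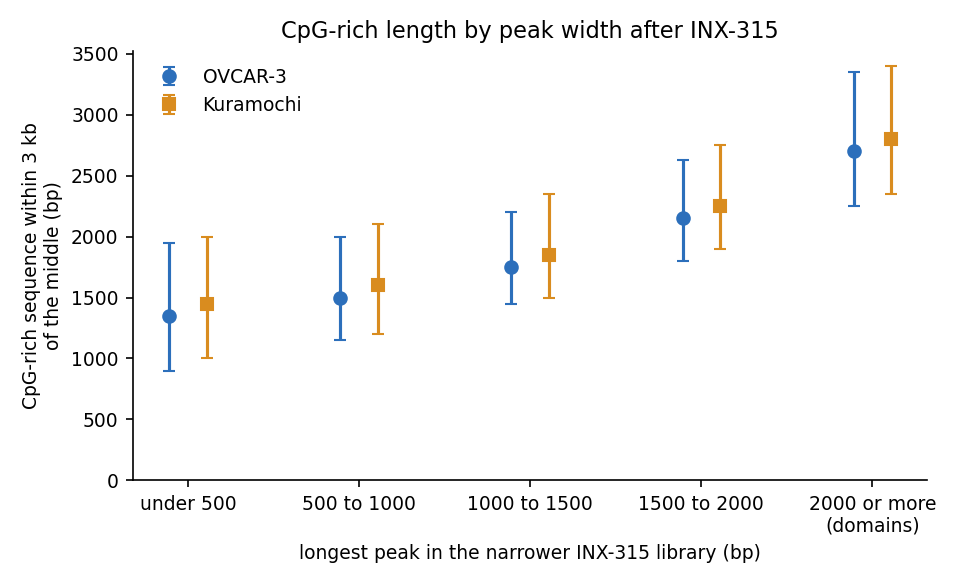
CpG-rich sequence within 3 kb on either side of the region's middle (bp, vertical axis) for regions with a peak in both INX-315 libraries, grouped by the longest peak in the narrower INX-315 library (bp, horizontal axis). Points are medians and bars span the interquartile range over regions, from 1350 bp and 1450 bp under 500 bp of width to 2700 bp and 2800 bp in the domains.

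Core and added sequence differed more in E2F matches than in CpG. In OVCAR-3 the core, under peaks of both DMSO libraries, held 9.28 CpGs per 100 bp and the added part, under both INX-315 peaks and neither DMSO library, held 7.94, while the 1000 bp beyond either edge of the INX-315 peaks held 2.39. In Kuramochi the values were 9.13, 8.57 and 2.45. CpG-rich windows took 93.9%, 85.8% and 20.1% of these parts in OVCAR-3 and 92.1%, 85.8% and 22.1% in Kuramochi. The added sequence was thus nearly as CpG-rich as the core, and CpG-rich sequence was scarce beyond the edges.

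E2F matches numbered 2.76 per 10 kb in the core, 1.03 in the added part and 0.281 beyond the edges in OVCAR-3, from 82, 25 and 17 matches. In Kuramochi they numbered 3.19, 0.266 and 0.314 per 10 kb, from 61, 2 and 10 matches, so that the added part carried no more of them per length than the flanks. The GC box GGGCGG fell less, from 58.8 to 40.8 per 10 kb in OVCAR-3 and from 61.7 to 45.8 in Kuramochi, with 6.47 and 7.09 beyond the edges. The CCAAT box, searched as CCAAT, stood at 13.4 in the core, 9.30 in the added part and 14.0 beyond the edges in OVCAR-3, and at 13.1, 5.18 and 14.0 in Kuramochi. Motifs were sought on both strands and counted separately, so a base could belong to more than 1 motif. A match is a description of the letters and not evidence of a bound factor.

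E2F matches were found somewhere under the INX-315 peaks of 105 of 310 OVCAR-3 domains (33.9%) and 55 of 165 Kuramochi domains (33.3%). In windows of 300 bp around the summit they were present in 27 OVCAR-3 domains (8.71%) against 6.11% of other regions, and in 25 Kuramochi domains (15.2%) against 7.69%. The GC box was present in 80.3% and 85.5% of these windows against 74.1% and 78.2%, and CCAAT in 24.2% and 30.3% against 25.1% and 27.6%. At this window length most domains of either line held no E2F match.

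The best-known Rb targets were nearly all bound after either treatment. All 52 genes of a list of E2F-regulated cell cycle genes had a promoter peak in both INX-315 libraries of each line, and 48 had one in both DMSO libraries. In an OVCAR-3 domain there was 1 of them (1.92%) and in Kuramochi domains there were 2 (3.85%), E2F3 among them. Over all genes these shares were 390 of the 11056 bound protein-coding genes in OVCAR-3 (3.53%) and 222 of 10549 in Kuramochi (2.10%), so the counts of the E2F list lay near the background. The median width in the narrower INX-315 library was 1073 bp and 1056 bp over the E2F list, against 880 bp and 758 bp over all bound genes. In the narrower DMSO library it was 777 bp and 776 bp over the E2F list and 0 bp over all bound genes, which means that at least 50% of these lacked a peak there in at least 1 DMSO library. None of the 28 bound genes of a list of 30 mitotic genes was in a domain in either line, a count near what the shares over all bound genes would give.

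Genes of cell cycle control in G1 were in OVCAR-3 domains at CDKN2A and at CDKN2C, the latter of which encodes an inhibitor of CDK4 and CDK6. These were 2 of 20 bound genes (10.0%), beside 3.53% of all bound protein-coding genes. None of the 20 bound in Kuramochi was in a domain there, beside 2.10% of all bound genes. The CDKN2A domain (chr9:21993800-21996604) had 2069 bp and 1930 bp against 2805 bp and 2549 bp in OVCAR-3, and 1841 bp and 1872 bp against 2013 bp and 1942 bp in Kuramochi. CDKN2C had 2039 bp and 2201 bp against 2357 bp and 2489 bp in OVCAR-3, and 525 bp and 1697 bp against 1775 bp and 1733 bp in Kuramochi. Both were thus broad after DMSO in OVCAR-3, while in Kuramochi CDKN2C was narrow in 1 of the 2 DMSO libraries. Replication-dependent histone genes were in domains at 5 of 42 bound genes in OVCAR-3 (11.9%) and 5 of 44 in Kuramochi (11.4%), beside the same 3.53% and 2.10%. These were the same 5 genes at only 2 loci, so the shares rest on 2 regions. The second locus, of H2AC11 and H2BC11, had 1571 bp and 1090 bp against 2435 bp and 2447 bp in OVCAR-3 and 2288 bp and 2260 bp against 2446 bp and 2461 bp in Kuramochi.

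Developmental transcription factor genes outside the HOX clusters were in OVCAR-3 domains at 10 of 51 bound genes (19.6%) and in Kuramochi domains at 3 of 47 (6.38%), beside 3.53% and 2.10% of all bound protein-coding genes. Those of OVCAR-3 included WT1, EMX2, GATA6 and MEIS1, and SIX5, ZIC2 and MEIS2 were in domains of both lines. WT1, a transcription factor gene used as a marker of serous ovarian cancer, had 1692 bp and 1774 bp against 2561 bp and 2690 bp in OVCAR-3, and 1247 bp and 2066 bp against 3831 bp and 1865 bp in Kuramochi. EMX2 had 732 bp and 808 bp against 2063 bp and 2311 bp in OVCAR-3. In Kuramochi it had 372 bp and 1855 bp against 978 bp and 1064 bp, so that DMSO replicate 2 exceeded both INX-315 libraries. GATA6 had 416 bp and 322 bp against 2058 bp and 2247 bp in OVCAR-3, and no peak and 661 bp against 1708 bp and 1404 bp in Kuramochi. The difference between the lines in the share of this list was not tested, and the Kuramochi set was the smaller.

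The other lists held few members, and their shares stand beside the 3.53% of all bound protein-coding genes in OVCAR-3 domains and the 2.10% in Kuramochi domains. Immediate early and AP-1 genes were in domains at 4 of 27 bound genes in OVCAR-3 (14.8%), including FOSL2, ZFP36L1 and ZFP36L2, and at 2 of 28 in Kuramochi (7.14%), including ZFP36L2. Chromatin regulator genes were in domains at 2 of 45 in each line (4.44%), which were SMARCA2 and KMT2B in OVCAR-3 and KMT2A and KMT2B in Kuramochi. Oestrogen response genes were in domains at SIAH2, TPBG and TSKU in OVCAR-3, 3 of 30 bound (10.0%), and at SIAH2 in Kuramochi, 1 of 29 (3.45%). SIAH2, a ubiquitin ligase gene, had 1037 bp and 1055 bp against 2358 bp and 2524 bp in OVCAR-3, and 591 bp and 831 bp against 2608 bp and 2181 bp in Kuramochi. Of 39 HOX genes, 23 and 18 were bound and none was in a domain, a count near what the shares over all bound genes would give, and cytosolic ribosomal protein genes were in domains at 1 of 49 and 0 of 49. None of 400 olfactory receptor genes was bound in both INX-315 libraries of either line.

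The local background under the domains was above that of other regions. Its median was 1.58 to 2.02 times the genome-wide mean in the OVCAR-3 libraries and 1.91 to 2.18 times in the Kuramochi libraries, against 1.41 to 1.45 in other regions. A background of at least 5 times the mean was found at 4.19% to 6.80% of OVCAR-3 domains and 3.66% to 5.52% of Kuramochi domains, against 1.57% to 2.75% of other regions. The part of gene copy number in the width of these domains was not tested.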

How the data were processed

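Rb CUT&RUN was measured in 8 Rb and 2 IgG2a libraries. The authors trimmed reads with BBDuk, aligned them to hg38 with Bowtie2 (2.3.4.1), kept duplicates and called peaks in each library alone with MACS2 (2.2.7.1) against the IgG2a library of the line at a q-value of 0.05, with no spike-in scaling used here. The deposited peak lists give positions and summits, a fold enrichment (linear ratio of summit fragments to local background), −log10 values of p and q (p-value and q-value), and a display score, all from the authors' caller. They hold no read totals. Whole fragments at the summit, the local background and the mean coverage of each library were recovered from fold enrichment and p-value (relative tolerance 3e-05), for at least 98.6% of peaks of each Rb library, and depth limits how far weak flanks are called. The study's differential test uses reads, and was not run here. Peak lists carry no expression, so cell type markers were not checked.

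Groups and replicate numbers came from the labels. The methods give 2 biological replicates per arm from an experiment performed once. Peaks of a line sharing 1 bp were merged, and the longest peak, the number of peaks and the length under peaks were taken per library. Promoters and exons came from GENCODE release 44, and sequence from hg38. The local background is that of the tallest peak of a region. A gene counted as bound with a peak over its promoter in both replicates. Differences between treatments were tested only in the line that did not choose the members, by exact two-sided permutation within lines, with Benjamini-Hochberg adjustment over 3 tests. Alternatives were other width thresholds, stricter q-values, equal list lengths, joined peaks, each Rb library left out and a replicate block. Domains, gene lists and tests were chosen with earlier results of these data known. Named were the 12 widest shared domains, the 5 widest of each line alone, the 3 with least and most DMSO coverage, the 3 on either side of the threshold, domains without a promoter, and list members. Domains on chromosome 8 were counted and are not named, and some list members are not reported here. The scripts were tested on simulated peaks. Python 3.11.15, numpy 2.4.6, pandas 2.3.3 and scipy 1.17.1 were used.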

Additional observations from a re-analysis of the deposited data

How the results depend on the processing

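Of 110 values recomputed over 16 settings, 97 stayed on their side of the criteria, 12 counts or shares moved and 1 reversed. The number of domains followed the width threshold most. At 1500 bp there were 1161 domains in OVCAR-3, 667 in Kuramochi and 476 shared, and at 3000 bp there were 19, 9 and 3. Joining peaks less than 500 bp apart gave 261 Kuramochi and 157 shared domains. Leaving out 1 library gave 310 to 693 OVCAR-3, 165 to 332 Kuramochi and 97 to 156 shared domains, with the highest counts without the shallower INX-315 library (for the shared count, that of Kuramochi). Without an INX-315 library a wide peak was asked of only the remaining one of that line, so these counts could not fall. The median DMSO share of the INX-315 length ranged from 40.8% to 58.6% in OVCAR-3 and from 49.4% to 80.8% in Kuramochi. In the other line's libraries, the log2 differences ranged from 0.63 to 1.01 for covered length, from 0.72 to 1.13 for the longest peak and from −0.53 to −0.071 for covered length relative to other regions apart from 1 reversal, with exact permutation p-values of 0.0556 to 0.111. The value of −0.071 came from taking the same number of top peaks in each library of a line, and leaving out 1 library gave −0.53 to −0.38. Only regions with a peak in all 4 libraries of the line measured, a setting added after seeing the data, reversed the last value, to 0.054 (exact permutation p = 0.111), since regions called only after INX-315 no longer entered. No shared replicate difference was seen, as the replicate differences of DMSO and INX-315 correlated at 0.00085 in OVCAR-3 and −0.0058 in Kuramochi over regions with a peak in all 4. These correlations do not settle whether libraries of equal replicate number were handled together. A replicate block left the differences at 0.82, 0.92 and −0.48 with an exact sign-flip p of 0.125, the smallest that 4 pairs allow. Permutation of 8 libraries within 2 lines cannot fall below 0.0556, so no setting could pass 0.05, and stability of these p-values carries no information.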
